A study of Homo sapiens with 12 samples.

Results

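Keratins were measured as 12 probe sets of 9 genes on oligonucleotide arrays of human mammary acini, among 22215 probe sets that were not controls. The members were all probe sets whose platform annotation gives a single gene symbol that is one of 10 keratins of mammary and stratified epithelium: KRT5, KRT7, KRT8, KRT10, KRT14, KRT15, KRT16, KRT17, KRT18 and KRT19. KRT10 had 3 probe sets, KRT7 had 2 and 7 genes had 1 each. KRT17 had no probe set with a single symbol and was not analysed here. The cells were HMT-3522 S1, a non-malignant line derived from adult human breast that forms hollow, polarized spheres when embedded in laminin-rich gel. The study compared cultures that had lost apical polarity with polarized ones.

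All groups were S1 cells of passage 55 to 60, plated on Matrigel and fed H14 medium with insulin, transferrin, selenite, estradiol, hydrocortisone, prolactin and 5% Matrigel, with EGF for 8 days and without it for 48 hours. The Aza group received 10 µM 5-aza-2'-deoxycytidine, which blocks DNA methyltransferases, and its cells are labelled not polarized. The AGA group received 10 µM 18α-glycyrrhetinic acid, a blocker of gap junctions, and is also labelled not polarized. The vehicle group is labelled polarized, and the vehicle is not named. Both drugs were present for 10 days, counted from plating. Each group held 4 arrays, numbered 1 to 4. The series design calls them biological replicates, but all are cultures of 1 line, so p-values cover the spread between cultures and say nothing of other donors.

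Keratins form the intermediate filaments of epithelial cells as obligate pairs of an acidic (type I) and a basic or neutral (type II) chain. In the mammary gland KRT5 and KRT14 pair in the basal, myoepithelial layer, and KRT8 pairs with KRT18 in the luminal layer, where KRT7 and KRT19 are also made. KRT10 belongs to suprabasal cells of stratified epithelia, and KRT16 is induced in epidermis that is wounded or hyperproliferative. The type II genes KRT5, KRT7 and KRT8 lie on chromosome 12 together with the type I gene KRT18. The other type I genes, KRT10, KRT14, KRT15, KRT16, KRT17 and KRT19, lie on chromosome 17.

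The upstream sequences of KRT10 and KRT5 are shown because Aza acts on methylation of CG dinucleotides, and these genes differ in how many CG dinucleotides they hold there. Both are the 250 bases before the RefSeq start on assembly GRCh38.p14, read on the minus strand 5′ to 3′, from chr17:40822615-40822864 for KRT10 and chr12:52520395-52520644 for KRT5. Capitals mark CG and TATAAA.
KRT10: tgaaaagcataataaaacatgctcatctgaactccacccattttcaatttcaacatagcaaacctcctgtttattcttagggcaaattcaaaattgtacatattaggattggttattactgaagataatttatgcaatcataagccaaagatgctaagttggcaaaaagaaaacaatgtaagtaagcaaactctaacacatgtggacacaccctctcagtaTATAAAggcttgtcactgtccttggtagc
KRT5: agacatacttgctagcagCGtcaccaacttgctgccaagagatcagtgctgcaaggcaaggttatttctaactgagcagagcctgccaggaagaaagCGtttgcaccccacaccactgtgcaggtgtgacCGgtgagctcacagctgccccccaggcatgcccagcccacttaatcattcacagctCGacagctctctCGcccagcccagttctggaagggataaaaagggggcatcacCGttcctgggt
The KRT10 window holds 0 CG dinucleotides, as do 6.06% of 35116 promoters of the same length, and it holds TATAAA beginning 29 bases before the start. TATAAA was searched on both strands and is present in 10.7% of these promoters. The KRT5 window holds 6 CG dinucleotides, a count that 41.1% of promoters do not exceed, and no TATAAA. The median promoter holds 11.0. The KRT8 window of the same table holds 1 CG dinucleotide (14.7% of promoters have as few). Of the 10 keratins, 3 were matched in this promoter table. Methylation was not measured in these data.

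Levels are given as log2 of quantile-normalized intensity. Deposited values below 1 were set to 1, so 0 is the lowest level possible. Differences between groups are read within a probe set, because probe sets bind with different strength. Levels set against the median of all probe sets, or summed over a list, are therefore a rough guide only. The median level over all probe sets was 4.76. Median deposited intensity per array was 23.3 to 35.9, and 4 arrays per group set the limit of precision. The first principal component of the probe sets above the median level held 43.4% of the variance. It placed the replicate 4 arrays of all 3 groups at 38.7 to 46.3 and the other 9 arrays at -20.9 to -7.32. Arrays of the same number resembled each other across groups, so differences within same-number pairs are given beside group means. For the single probe sets below, SE, intervals and adjusted p come from limma without a replicate block unless another fit is named. Block and trend names the fit with replicate number as a block and a prior variance that follows intensity.

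The labelled epithelium was checked against markers. KRT5, KRT14, KRT8 and KRT18 read above the median level on all 12 arrays, whereas KRT19 was at the floor on 12 of 12. Among luminal markers other than keratins, 31 of 34 probe sets had mean levels below the median of all probe sets. The 3 above that median were all those of GATA3. They averaged 9.29, 6.40 and 6.01 in Aza, 9.06, 5.95 and 5.76 in AGA, and 9.31, 6.43 and 5.95 in vehicle arrays. EPCAM, an epithelial adhesion molecule, averaged 1.31 in Aza, 2.30 in AGA and 0.79 in vehicle arrays, with 4 of 12 at the floor. Among basal and myoepithelial markers other than keratins, 14 of 29 were below it. Leukocyte markers were below it in 5 of 5 probe sets, and fibroblast markers in 14 of 16.

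**Figure D1:**
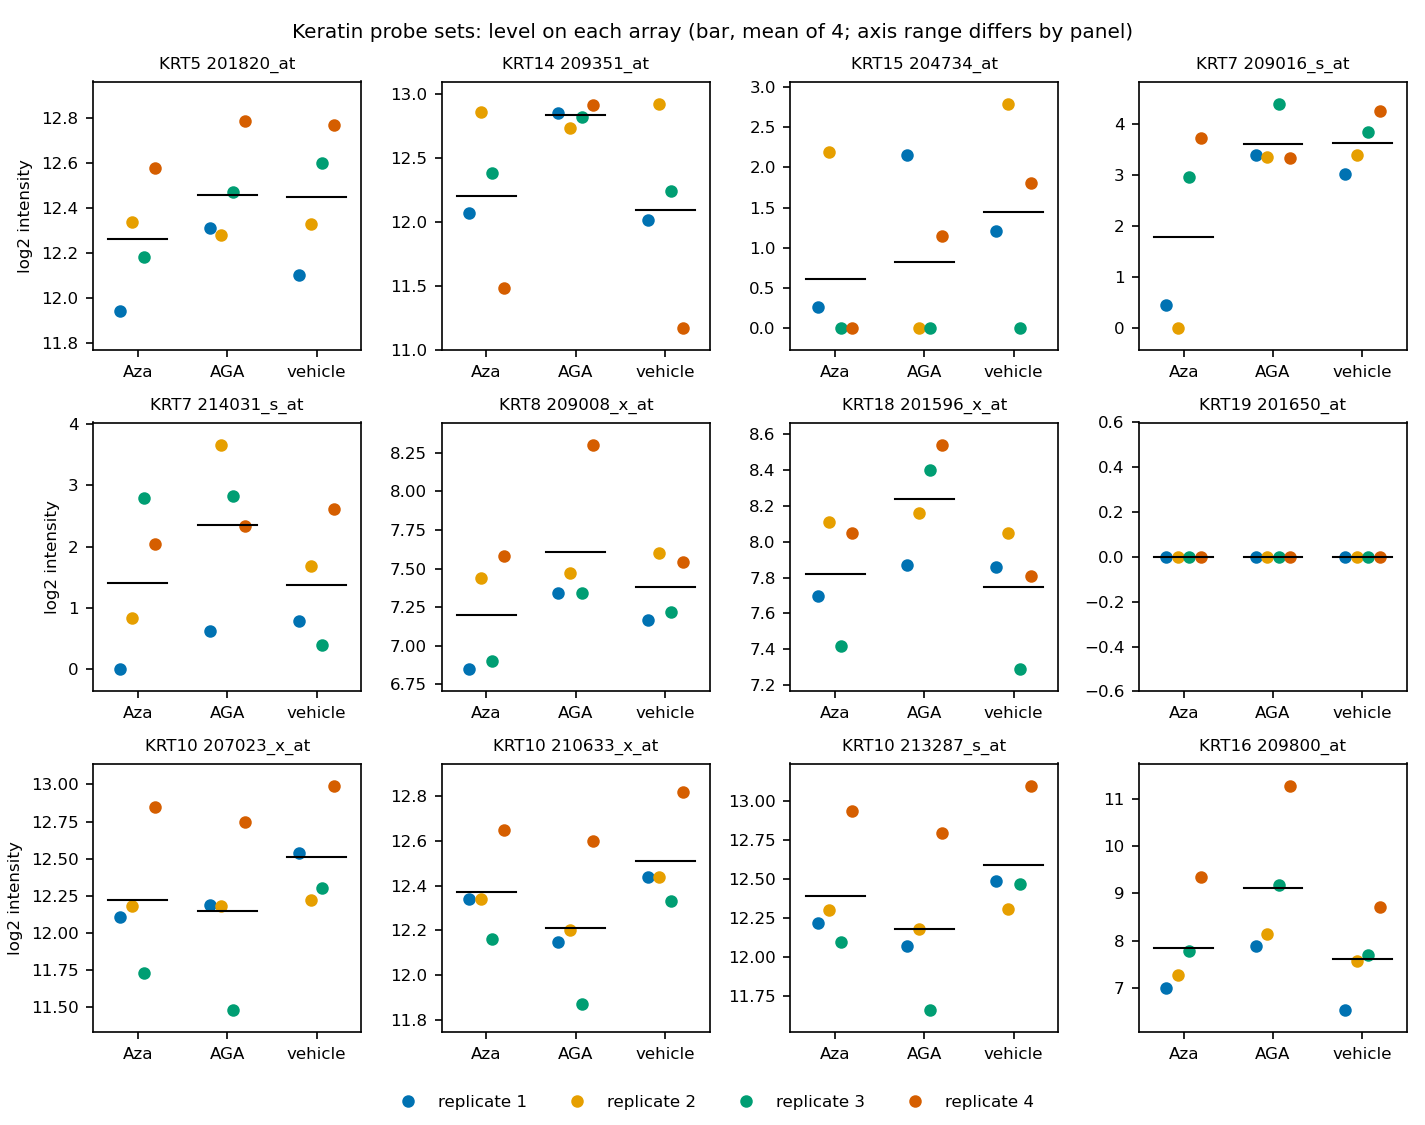
Level of each keratin probe set on each array, in log2 intensity, by group and coloured by replicate number; the bar is the mean of 4 arrays and the vertical range differs between panels. KRT16 is highest on the AGA array of every number, KRT10 and KRT5 are highest on the replicate 4 array of every group, and KRT19 lies at the floor on all 12 arrays.

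KRT5, the basal type II keratin, did not pass the test in any comparison. Its probe set (201820_at) read 11.94, 12.34, 12.18 and 12.58 on Aza arrays 1 to 4, 12.31, 12.28, 12.47 and 12.79 on AGA arrays, and 12.10, 12.33, 12.60 and 12.77 on vehicle arrays. The ranges of the 3 groups overlapped, and the replicate 4 array was the highest of each group. Group means were 12.26 ± 0.27 in Aza, 12.46 ± 0.23 in AGA and 12.45 ± 0.30 in vehicle (SD, n = 4). AGA minus vehicle was 0.01, with a 95% interval of -0.44 to 0.47 in limma, and Aza minus vehicle was -0.19 (-0.65 to 0.26). With a replicate block these intervals were -0.25 to 0.27 and -0.46 to 0.07. Replicate number accounted for 74.3% of the variance of KRT5 and group for 14%, against medians of 40.8% and 12.5% over all probe sets.

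KRT14, the basal type I partner of KRT5, had an even level under AGA and a wide one elsewhere. Its probe set (209351_at) read 12.07, 12.86, 12.38 and 11.48 on Aza arrays, 12.85, 12.73, 12.82 and 12.91 on AGA arrays, and 12.01, 12.92, 12.24 and 11.17 on vehicle arrays. The replicate 4 arrays were the lowest of Aza and of vehicle, but AGA 4 was the highest of its group, and all 4 AGA values lay within the range of the vehicle values. Means were 12.20 ± 0.58 in Aza, 12.83 ± 0.07 in AGA and 12.09 ± 0.72 in vehicle (SD, n = 4). AGA minus vehicle was 0.74 ± 0.36 (SE; 1.67-fold, limma adjusted p = 1). Within pairs 1 to 4 it was 0.83, -0.19, 0.58 and 1.74. The deposited KRT14 intensities ran from 2329 to 8207, and the highest value on any array was between 9680 and 11878. Whether signal near the top of the scale was compressed was not tested.

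KRT15, a type I keratin of basal and progenitor cells, was near the floor. Its probe set (204734_at) read 0.26, 2.19, 0.00 and 0.00 on Aza arrays, 2.16, 0.00, 0.00 and 1.14 on AGA arrays, and 1.21, 2.79, 0.00 and 1.81 on vehicle arrays. The deposited value was below 1 on 5 of 12 arrays, in all 3 groups. No order of the groups can be read from it, and Aza minus vehicle was -0.84 (-2.42 to 0.74, 95% interval in limma).

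KRT8, the luminal type II keratin of simple epithelia, had overlapping groups. Its probe set (209008_x_at) read 6.85, 7.44, 6.90 and 7.58 on Aza arrays, 7.34, 7.47, 7.34 and 8.30 on AGA arrays, and 7.17, 7.60, 7.22 and 7.54 on vehicle arrays. The AGA 4 array was the highest of the 12, and the other AGA arrays lay within the vehicle range. Means were 7.20 ± 0.37 in Aza, 7.61 ± 0.46 in AGA and 7.38 ± 0.22 in vehicle (SD, n = 4). AGA minus vehicle was 0.23 (-0.35 to 0.81, 95% interval in limma) and Aza minus vehicle -0.19 (-0.77 to 0.39). Aza minus AGA was -0.42, below 0 in 4 of 4 pairs, with limma adjusted p = 1. With a replicate block the intervals were -0.13 to 0.60 for AGA minus vehicle and -0.55 to 0.18 for Aza minus vehicle. For Aza minus AGA the interval with the block was -0.78 to -0.06 (limma adjusted p = 0.516).

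KRT18, the type I partner of KRT8, had its 3 highest values on AGA arrays. Its probe set (201596_x_at) read 7.70, 8.11, 7.42 and 8.05 on Aza arrays, 7.87, 8.16, 8.40 and 8.54 on AGA arrays, and 7.86, 8.05, 7.29 and 7.81 on vehicle arrays. Every AGA array was above its own vehicle array, by 0.01 in pair 1, where the 2 values were nearly equal, but the groups overlapped. Means were 7.82 ± 0.32 in Aza, 8.24 ± 0.29 in AGA and 7.75 ± 0.33 in vehicle (SD, n = 4). AGA minus vehicle was 0.49 ± 0.23 (SE; 1.4-fold, limma adjusted p = 1), and Aza minus AGA was -0.42 and below 0 in 4 of 4 pairs. With a replicate block their 95% intervals in limma were 0.03 to 0.95 and -0.88 to 0.04 (limma adjusted p = 0.512 and 0.579). Aza minus vehicle was 0.07 (-0.44 to 0.58, 95% interval in limma). The suffix of the KRT8 and KRT18 probe sets marks probes that can also bind other transcripts, and both genes have many processed pseudogenes, so these levels may hold other RNA.

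KRT7, a luminal type II keratin of ducts, was dim and its probe sets disagreed. The first (209016_s_at) read 0.46, 0.00, 2.95 and 3.73 on Aza arrays, 3.38, 3.35, 4.39 and 3.33 on AGA arrays, and 3.02, 3.38, 3.83 and 4.26 on vehicle arrays. The Aza 1 and Aza 2 arrays were far below every other array, while Aza 4 lay among the vehicle values. Means were 1.78 ± 1.83 in Aza, 3.61 ± 0.52 in AGA and 3.62 ± 0.54 in vehicle (SD, n = 4). Aza minus vehicle was -1.84 ± 0.75 (SE; limma adjusted p = 1) and below 0 in 4 of 4 pairs. With a replicate block its 95% interval in limma was -3.24 to -0.43 (limma adjusted p = 0.912). The deposited intensities were 0.567 to 19.9, below the median of every array (23.3 to 35.9). With block and trend, the difference was -0.07 with a floor of 16 and -0.44 with 16 added to the intensities. The other probe set (214031_s_at) read 0.00, 0.83, 2.79 and 2.04 on Aza arrays, 0.62, 3.66, 2.82 and 2.34 on AGA arrays, and 0.78, 1.68, 0.39 and 2.61 on vehicle arrays. Its groups overlapped widely, and Aza minus vehicle was 0.05 (-1.65 to 1.75, 95% interval in limma). KRT19, the remaining luminal keratin, had deposited intensities of 0.302 to 0.847 in its probe set (201650_at), below the floor on every array. A difference in KRT19 was therefore not measurable in either direction.

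KRT10, the suprabasal type I keratin, was bright and lower on the AGA array than on the vehicle array of every pair in 3 of 3 probe sets. The first (207023_x_at) read 12.11, 12.18, 11.73 and 12.85 on Aza arrays, 12.19, 12.18, 11.48 and 12.75 on AGA arrays, and 12.54, 12.22, 12.30 and 12.99 on vehicle arrays. The second (210633_x_at) read 12.34, 12.34, 12.16 and 12.65 on Aza arrays, 12.15, 12.20, 11.87 and 12.60 on AGA arrays, and 12.44, 12.44, 12.33 and 12.82 on vehicle arrays. In both, the replicate 4 arrays were the highest and the replicate 3 arrays the lowest of the Aza and AGA groups, and the groups overlapped. The last (213287_s_at) read 12.22, 12.30, 12.10 and 12.94 on Aza arrays, 12.07, 12.18, 11.66 and 12.80 on AGA arrays, and 12.49, 12.31, 12.47 and 13.10 on vehicle arrays. Its AGA arrays were again highest in replicate 4 and lowest in replicate 3, and its groups overlapped. AGA minus vehicle was -0.36, -0.30 and -0.41 in the 3 probe sets (0.778-, 0.81- and 0.75-fold), with limma adjusted p = 1 for each without the block. With block and trend the second and the last passed (limma adjusted p = 0.0084 and 0.0192) and the first did not (0.101). Aza minus vehicle was -0.29, -0.14 and -0.20, also below 0 in 4 of 4 pairs for each, and not past the threshold. Replicate number held 71% to 76.9% of the variance of the KRT10 probe sets. They followed one another over the 12 arrays after the mean of each number was removed (r = 0.81 to 0.94), as readings of the same RNA on the same arrays. The suffixes of these probe sets also mark probes shared with other transcripts, whose part was not tested. On vehicle 4 the deposited intensities of the 3 were 8142, 7434 and 8733. Whether KRT10 signal near the top of the scale was compressed was not tested either.

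KRT16, the keratin of wounded epidermis, was highest under AGA in every numbered set of cultures. Its probe set (209800_at) read 7.00, 7.28, 7.78 and 9.34 on Aza arrays, 7.88, 8.15, 9.17 and 11.28 on AGA arrays, and 6.53, 7.57, 7.70 and 8.71 on vehicle arrays. Deposited intensities were 144, 164, 234 and 575 on Aza arrays, 194, 296, 527 and 2262 on AGA arrays, and 91.8, 192, 278 and 426 on vehicle arrays. The groups overlapped, since AGA 1 and AGA 2 were below vehicle 4, and replicate 4 was the highest array of each group. Means were 7.85 ± 1.05 in Aza, 9.12 ± 1.54 in AGA and 7.62 ± 0.89 in vehicle (SD, n = 4). AGA minus vehicle was 1.50 (2.82-fold), and 1.35, 0.59, 1.48 and 2.57 within pairs 1 to 4. It did not pass without the block (SE 0.78, limma adjusted p = 1) and passed with block and trend (SE 0.24, limma adjusted p = 0.0221). Aza minus AGA was -1.27 (0.415-fold), and -0.88, -0.87, -1.39 and -1.94 within pairs. It too passed only with block and trend (SE 0.24, limma adjusted p = 0.0368), against SE 0.78 and limma adjusted p = 1 without the block. Aza minus vehicle was 0.23 (-1.49 to 1.95, 95% interval in limma). KRT16 is a close relative of KRT14 and KRT17 and has pseudogenes, and how far its probes bind these was not tested. In RNA from whole cultures, more cells that make KRT16 and more KRT16 RNA per cell cannot be told apart.

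**Figure D2:**
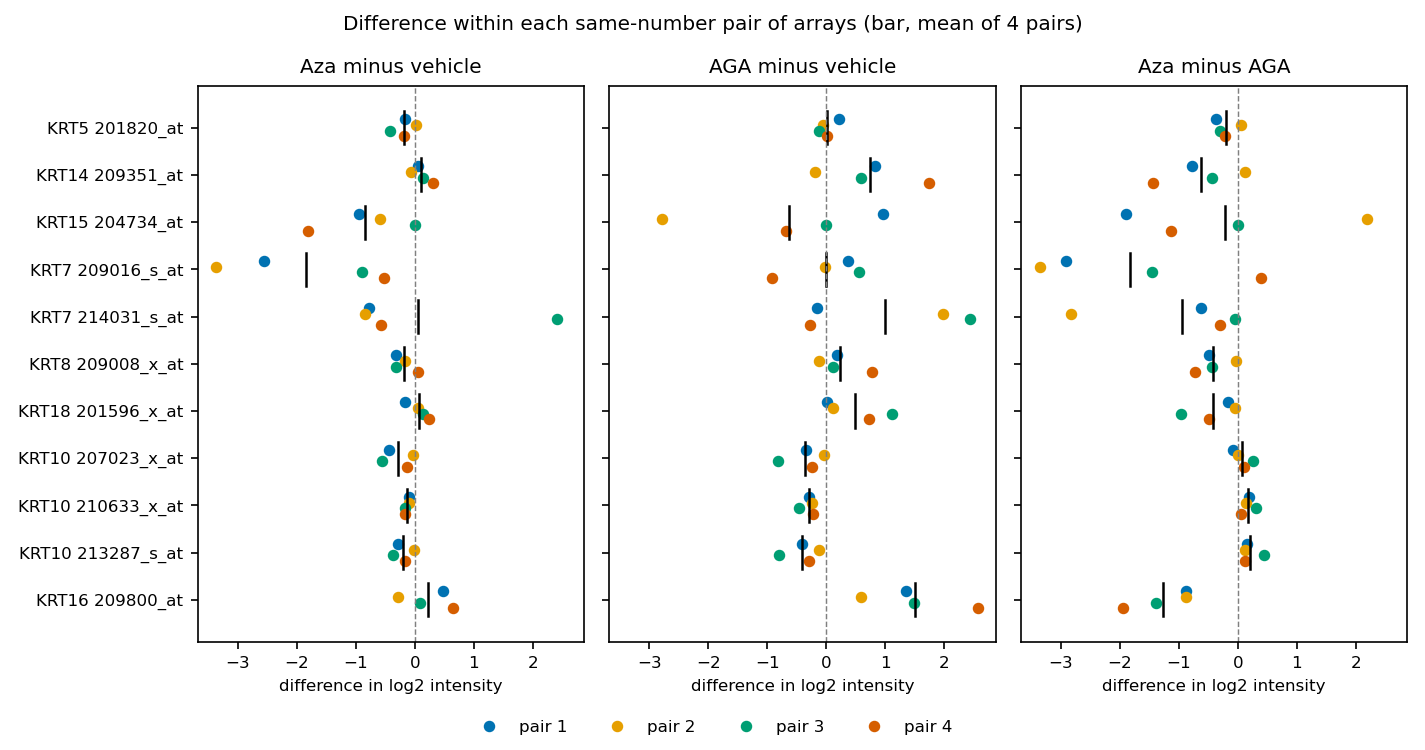
Difference in log2 intensity within each same-number pair of arrays, in panels Aza minus vehicle, AGA minus vehicle and Aza minus AGA. The bar is the mean of 4 pairs. Shown are the 11 keratin probe sets that were not at the floor on all 12 arrays. KRT15 was at the floor on 5 arrays and each KRT7 probe set on 1. KRT16 lies above 0 in all 4 AGA minus vehicle pairs (0.59 to 2.57) and below 0 in all 4 Aza minus AGA pairs, and the 3 KRT10 probe sets lie below 0 in both comparisons with vehicle.

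Comparing AGA with vehicle asks what differs when polarity is lost with blocked gap junctions. Without a replicate term, 0 of 12 keratin probe sets passed in limma at an adjusted p of 0.05 (0.009% of all probe sets did), and 0 had an unadjusted p under 0.05 (4.73% of all). With replicate number as a block, 0 of 12 passed (0.009% of all) and 6 had an unadjusted p under 0.05 (9.52% of all), the 3 of KRT10 among them. With block and trend, 3 of 12 passed, against 0.702% of all probe sets. The 3 are bright, and 2 of them read the same gene. With only the 11107 probe sets above the median level tested, this fit called 241, a larger share, and the same 3 keratin probe sets. KRT16 rose by 1.50 ± 0.24 (SE; limma adjusted p = 0.0221), 1 higher against 0.387% of all. The KRT10 probe sets 210633_x_at and 213287_s_at fell by 0.30 ± 0.05 and 0.41 ± 0.08 (SE; limma adjusted p = 0.0084 and 0.0192), 2 lower against 0.315% of all. The remaining KRT10 probe set, 207023_x_at, differed by -0.36 ± 0.09 (SE; limma adjusted p = 0.101). KRT18 and KRT14 did not pass (limma adjusted p = 0.158 and 0.358), and KRT5 had an interval of -0.13 to 0.15 in this fit.

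By sign alone, 2 keratin probe sets (KRT16 and KRT18) were higher in 4 of 4 AGA pairs, against 9.15% of all probe sets, and the 3 of KRT10 were lower, against 9.06% of all. No keratin probe set had groups that did not overlap, in either direction, against 1.23% of all probe sets higher and 1.29% lower. The 12 differences had a median of 0.01, and that of all probe sets was 0.00. On the deposited scale, without normalization, the median of all probe sets differed by -0.24 between AGA and vehicle.

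**Figure D3:**
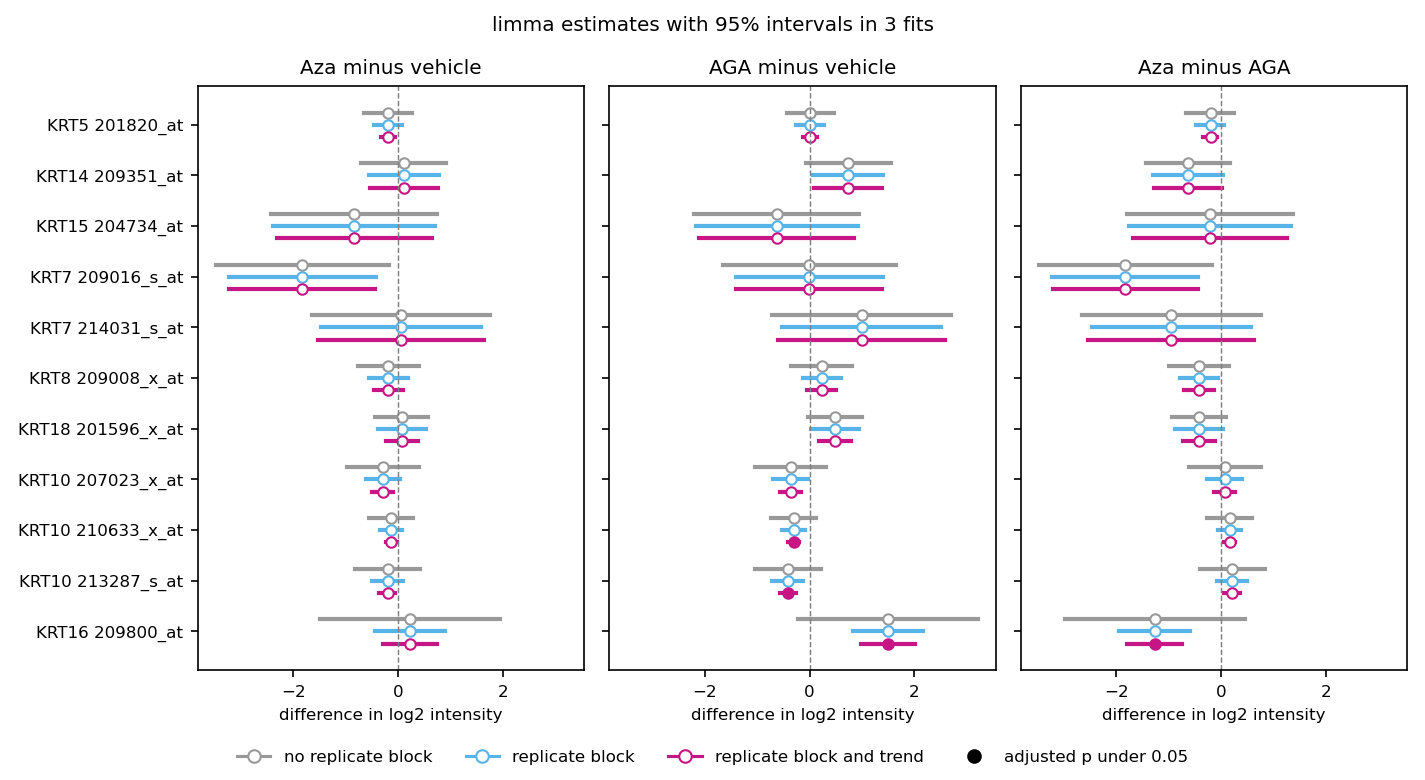
Difference in log2 intensity with its 95% interval for the 11 keratin probe sets that were not at the floor on all 12 arrays. The fits are limma without a replicate block, with the block, and with block and intensity trend. Filled points have an adjusted p under 0.05. Only the fit with block and trend has filled points, for KRT16 and 2 KRT10 probe sets in AGA minus vehicle and for KRT16 in Aza minus AGA.

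The calls of the fit with block and trend were recomputed under 18 other choices. The KRT16 rise under AGA was called in 14 of the 18, with a difference of 1.14 to 1.74. Some of the 18 left out 1 Aza array, which is outside the comparison of AGA with vehicle. There the KRT16 difference stayed at 1.50 and neither the KRT16 nor the KRT10 calls were lost, so those choices test the calls weakly. The call was lost with a floor of 16 (limma adjusted p = 0.204), without vehicle 1 (0.0763), without vehicle 3 (0.116) and without AGA 3 (0.111). Over all probe sets these choices called 0, 91, 28 and 26, against 156 as first computed, so calls were lost across the array as well. Without all replicate 4 arrays, the highest of each group, KRT16 still differed by 1.14 (limma adjusted p = 0.0141). The KRT10 call for 210633_x_at held in 13 choices. It was lost on the deposited scale (limma adjusted p = 0.0519), with a floor of 16 (0.146), without vehicle 3 (0.0668) and without AGA 3 (0.0525), and when arrays were centred on their medians the difference was -0.14 (0.389). The KRT10 call for 213287_s_at held in 11. It was lost with median centring at -0.21 (limma adjusted p = 0.189), with a floor of 16 (0.264), without all replicate 4 arrays (0.0651), without vehicle 1 (0.0701), vehicle 3 (0.0965), vehicle 4 (0.0584) and AGA 3 (0.0661). Leaving out 1 array also brought in calls, KRT14 without AGA 2 (1.02, limma adjusted p = 0.0495) and KRT10 207023_x_at without vehicle 2 (-0.46, 0.0304).

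**Figure D4:**
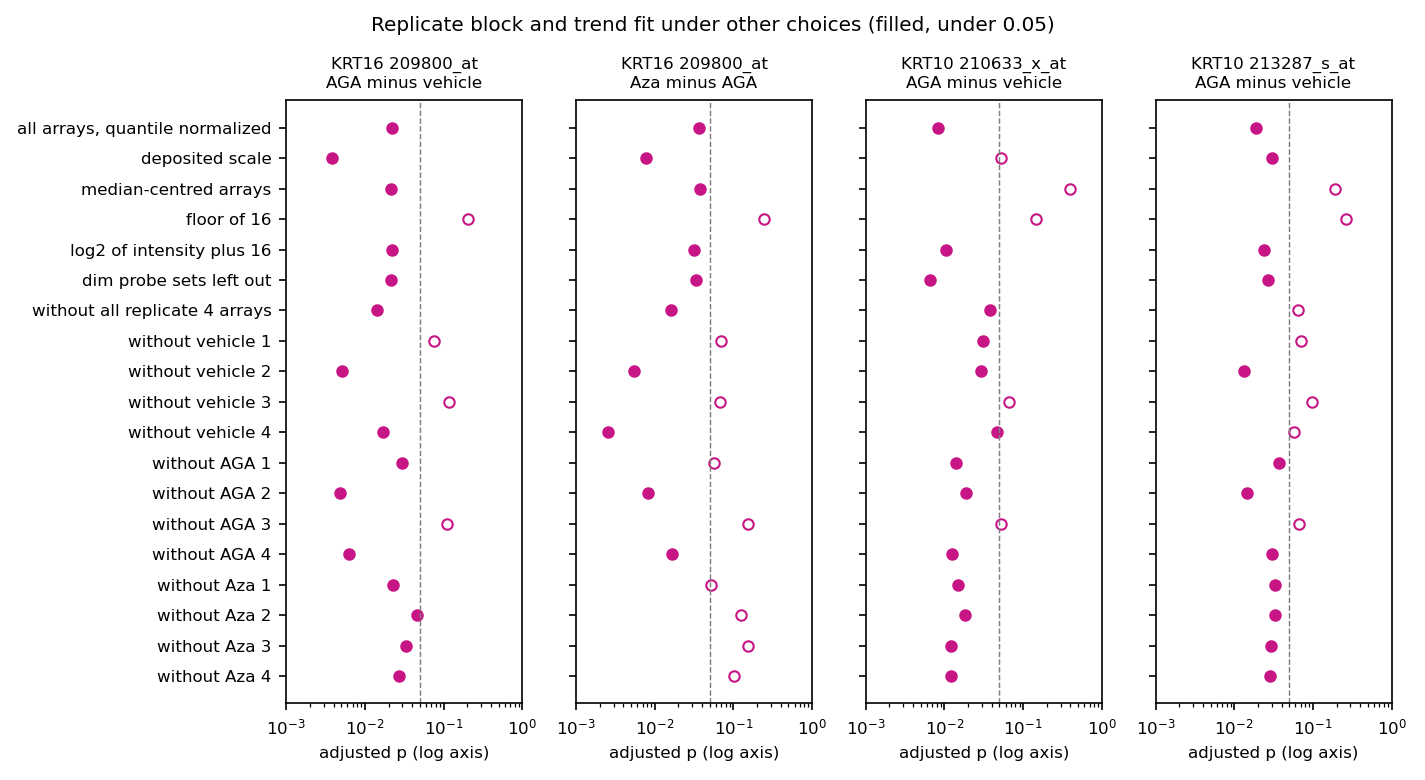
Limma adjusted p (log axis) of KRT16 and 2 KRT10 probe sets in the fit with replicate block and trend, under each of 18 other choices and as first computed (top row); filled points are under 0.05, the dashed line. KRT16 in AGA minus vehicle is filled in 14 of the 18, KRT16 in Aza minus AGA in 9, and the KRT10 probe sets in 13 and 11. The choices include leaving out arrays of the group outside the comparison.

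Comparing Aza with vehicle asks what differs when polarity is lost with inhibited DNA methylation. No keratin probe set passed the test. In limma 0 of 12 passed without the block (0.009% of all), 0 with the block, where 0% of all passed, and 0 with block and trend (0.0045% of all). At an unadjusted limma p under 0.05, the 12 held 1 without the block (3.27% of all) and 1 with it (5.39% of all), KRT7 209016_s_at both times. With block and trend they held 5 (6.47% of all), the 3 of KRT10, KRT5 and KRT7 209016_s_at. The lowest adjusted p was 0.656 with block and trend, for KRT10 207023_x_at. By sign, 0 were higher in 4 of 4 pairs (7.61% of all) and 4 were lower, namely the 3 of KRT10 and KRT7 209016_s_at (7.12% of all). The 3 KRT10 probe sets read the same gene, so these counts are not of independent probe sets. No keratin probe set had groups that did not overlap (0.846% of all higher, 0.878% lower). The 12 differences had a median of -0.16, and that of all probe sets was 0.00. In this fit the interval was -0.33 to -0.05 for KRT5 (limma adjusted p = 0.669) and -0.29 to 0.75 for KRT16. These comparisons share their vehicle arrays, so likeness between them is not independent.

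Comparing Aza with AGA directly tests whether the drugs differ. Without the block 0 of 12 passed in limma (0.0135% of all), with the block 0 passed (0.009% of all), and with block and trend 1 passed (0.851% of all). This was KRT16, 1 lower against 0.383% of all, which fell by 1.27 ± 0.24 in Aza relative to AGA (SE; limma adjusted p = 0.0368). The KRT16 call held in 9 of 18 other choices, with differences of -1.49 to -0.98. It was lost with a floor of 16, without vehicle 1 or vehicle 3, without AGA 1 or AGA 3, and without any 1 of the 4 Aza arrays, at adjusted p of up to 0.245 in limma. Without all replicate 4 arrays the difference was -1.05 (limma adjusted p = 0.0163). By sign, 2 probe sets were higher in 4 of 4 pairs (8.66% of all) and 4 lower (8.76% of all). The 2 were KRT10 probe sets and the 4 were KRT16, KRT8, KRT18 and KRT7 214031_s_at. At an unadjusted limma p under 0.05, the 12 held 1 without the block (4.76% of all), 3 with it (9.13% of all) and 7 with block and trend (11.2% of all). No keratin probe set had groups that did not overlap (1.24% of all higher, 1.34% lower).

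Markers of other cell types were read in the same arrays. Summed levels of 16 fibroblast probe sets were 49.3 to 51.6 on Aza arrays, 42.7 to 46.2 on AGA arrays and 45.2 to 50.6 on vehicle arrays. Of these 12 of 16 were higher in Aza than in AGA, against 11013 of 22215 over all. In AGA minus vehicle 11 of 16 were below 0 (11095 of 22215 over all). There 0 passed with block and trend, against 0.702% of all. In Aza minus AGA 1 of 16 passed with block and trend, 1 higher against 0.468% of all probe sets. It was the matrix proteoglycan DCN (201893_x_at), higher in Aza than in AGA by 1.47 (5.94 and 4.47, limma adjusted p = 0.0162). The other 3 DCN probe sets differed by 0.16, 1.55 and 1.59 and did not pass. Summed levels of 9 endothelial and adipocyte probe sets were 21.6 to 26.6 in Aza, 21.8 to 28.3 in AGA and 23.2 to 26.1 in vehicle. Of these 9, 1 passed in Aza minus AGA with block and trend, also 1 higher against 0.468% of all. It was the VEGF receptor KDR (203934_at), by 0.75 (7.89 and 7.15, limma adjusted p = 0.0131). Summed levels of 5 leukocyte probe sets were 1.9 to 11.8 in Aza, 7.6 to 15.1 in AGA and 7.9 to 10.7 in vehicle, with none passing. All arrays are cultures of 1 epithelial line, and 7 of the 9 endothelial and adipocyte probe sets were below the median level. Whether readings of these genes bear on the KRT16 and KRT10 results was not tested.

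Other genes of the keratin system were read from lists, by the number past the threshold with block and trend. The 23 measured genes of 31 other keratins gave 24 probe sets, all below the median level, with 0 past it in any comparison. A gene given as having the lowest p of its list had it without the block, and others can be lower with block and trend. For the other keratins in AGA against vehicle it was KRT4, of mucosal epithelium, whose probe set 214399_s_at averaged 0.88 in AGA and 2.92 in vehicle (difference -2.05, limma adjusted p = 0.953 without the block and 0.25 with block and trend). A further KRT4 probe set, 213240_s_at, averaged 0.42 in AGA and 1.15 in vehicle. Among 26 probe sets of filament linkers, such as the desmosomal plaque proteins DSP and PKP1 and the cross-linker PLEC, 0 passed in each of the 3 comparisons. PKP1 had the lowest p under AGA in its probe set 221854_at (9.37 in AGA and 9.01 in vehicle, difference 0.36, limma adjusted p = 1 without the block and 0.183 with block and trend), and its other probe set, 205724_at, differed by 0.07. DSP differed by -0.24 in AGA minus vehicle and by -0.17 in Aza minus vehicle.

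Among 21 probe sets of other intermediate filaments, 0 passed in each comparison, and VIM, the mesenchymal filament that cultured mammary cells also make, differed by -0.06 in Aza minus vehicle and in AGA minus vehicle. Luminal markers other than keratins had 0 of 34 past the threshold in each comparison. Their lowest p without the block in AGA was that of 1 of 9 probe sets of the oestrogen receptor ESR1, 211234_x_at (3.90 in AGA and 2.12 in vehicle, limma adjusted p = 0.996). The 9 did not move together: 5 were above 0 in AGA minus vehicle and 4 below, from -0.71 to 1.77. In Aza the lowest was that of the progenitor receptor KIT (3.51 in Aza and 1.38 in vehicle, limma adjusted p = 0.603). Basal markers other than keratins had 0 of 29 past it. Of those 29, from 13 genes, 22 were above 0 in AGA minus vehicle, with a median of 0.16. The 34 luminal probe sets had 20 above 0 and 13 below in the same comparison, with a median of 0.18. Over all probe sets 11084 of 22215 were above 0 and the median was 0.00. Transcription factors that act at keratin genes or in keratinocytes had 0 of 22 past the threshold. GRHL2, a regulator of epithelial genes, had the lowest p without the block in both drugs, at 2.84 in Aza, 2.85 in AGA and 1.48 in vehicle, a level below the median. With block and trend its limma adjusted p was 0.79 in Aza and 0.48 in AGA, and other factors of the list were lower.

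**Figure D5:**
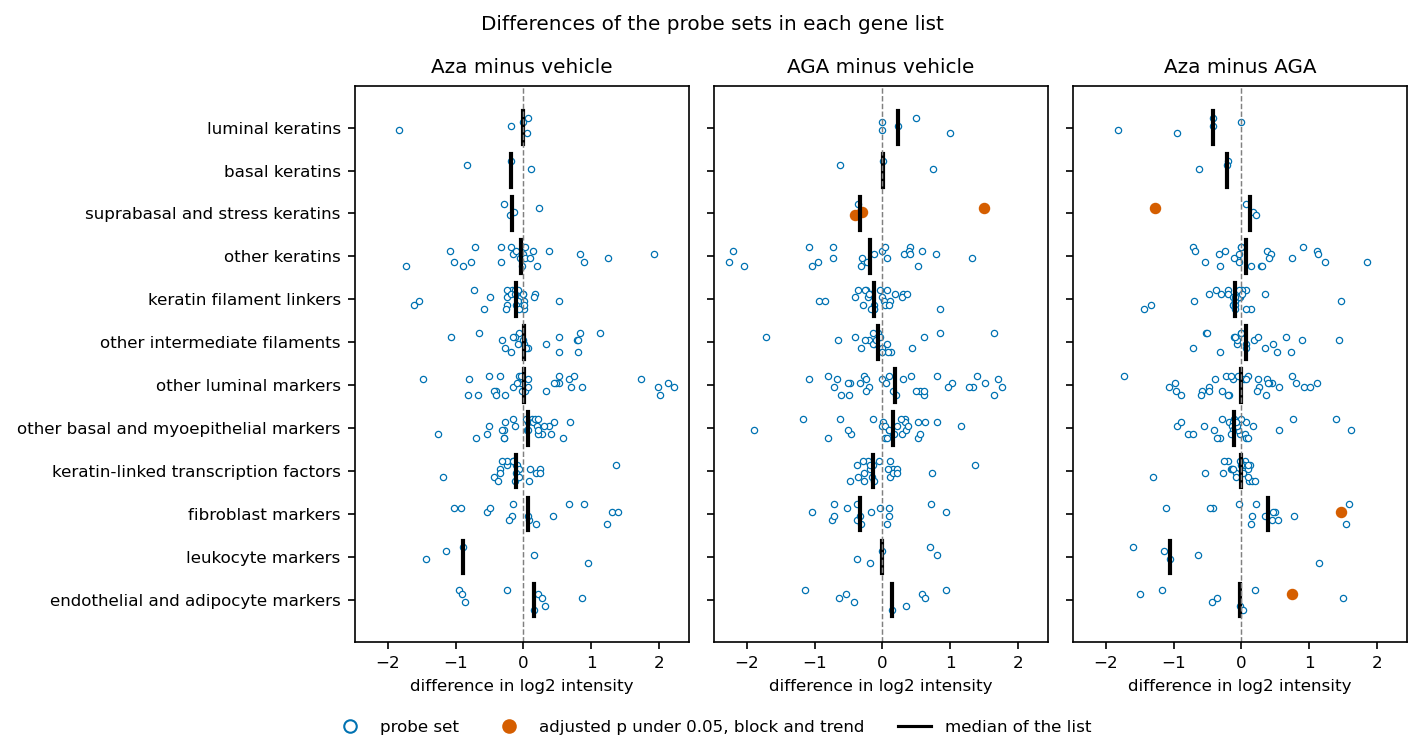
Difference in log2 intensity of every probe set of each gene list, in panels Aza minus vehicle, AGA minus vehicle and Aza minus AGA; the bar is the median of the list and filled points have an adjusted p under 0.05 in limma with replicate block and trend. Filled keratin points are KRT16 and 2 KRT10 probe sets in AGA minus vehicle and KRT16 in Aza minus AGA, where DCN and KDR are also filled.

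The keratins were also set beside one another over the 12 arrays after the mean of each replicate number was removed. KRT16 and KRT14 had r = 0.91, KRT14 and KRT8 0.87, KRT16 and KRT18 0.8, and KRT8 and KRT18 0.65. KRT10 ran opposite to KRT16 (r = -0.76) and to KRT14 (-0.6), and KRT5 had r = 0.36 with KRT14 and 0.28 with KRT16. Without removing the number means, the sign turned for KRT10 and KRT16 (r = 0.34) and for KRT5 and KRT14 (-0.18). The plain r was 0.06 for KRT16 and KRT14, 0.22 for KRT14 and KRT8, 0.61 for KRT16 and KRT18, 0.72 for KRT8 and KRT18, -0.67 for KRT10 and KRT14 and 0.77 for KRT16 and KRT5. These are descriptions over arrays that share cultures and normalization. With number means removed, of 9785 probe sets outside the keratins with 1 symbol and a level above the median, ST6GALNAC2 was most like KRT16 (r = 0.98), CBLL1 most like KRT10 (0.96) and S100A2 most like KRT14 (0.96). PRSS21 was most like KRT18 (0.98), PKP1 most like KRT8 (0.97), DCAF11 most like KRT5 (0.94), HDHD3 most like KRT7 (0.95) and ZFP64 most like KRT15 (0.95). Each is the highest of many candidates on 12 arrays. Without removing the number means, r was -0.01 for ST6GALNAC2 with KRT16, 0.39 for ZFP64 with KRT15, and 0.55 to 0.89 for the others.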

How the data were processed

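Total RNA from 12 cultures was hybridised to 1 single-colour Affymetrix array each. The deposited values are probe set intensity on a linear scale, made by the authors with GCOS per the submitters' processing notes. The algorithm, the scaling and the genome build are not given in the sources used here, and detection calls were not used. Gene symbols came from the platform annotation, and 62 control probe sets of 22277 were left out. Upstream sequences came from RefSeq, GRCh38.p14.

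Deposited intensities below 1 were set to 1, taken to log2 and quantile normalized over the 12 arrays. Group means of all probe sets were estimated in limma 3.58.1 under R 4.3.3 (functions lmFit and eBayes, two-sided, all 12 arrays in 1 fit), with Benjamini-Hochberg adjustment over all 22215 and a threshold of 0.05. The code was tested on simulated data. Alternatives were the replicate block, the block with an intensity trend (eBayes, trend and robust), the deposited scale, median centring, a floor of 16, log2 of intensity plus 16, leaving out dim probe sets, only the arrays compared, Holm adjustment, and leaving out arrays. The block with trend combined with another choice was added after seeing the data.

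The labels give only replicate numbers, so the pairing comes from the data. Deviations from the group means correlated between same-number arrays at 0.0589 to 0.261 over all probe sets (6 of 12 pairs over 0.1) and at 0.368 to 0.781 over the 11107 above the median level (12 of 12), where pairs of different numbers reached 0.181. Every array correlated best with an array of its own number in both. On the second measure, samples were taken as paired by number.

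The members, lists and alternatives were chosen with earlier results of these data known. Named genes were all member probe sets and, for the brightest probe set of each keratin, the most correlated other gene. From each other list they were genes past the threshold or with the lowest p without the block per comparison, and not every such gene is named. EPCAM, GATA3, DSP, PLEC and VIM were named outside this rule.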

Additional observations from a re-analysis of the deposited data

Results flagged for a closer look

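Of 33 groups of 4 arrays examined, 3 held an array whose gap to its nearest neighbour exceeded Dixon's critical value as a share of the group's range, and chance gives about 1 in 20. That rate assumes independent, normally distributed values. Some KRT15 values were set to the floor, and some probe sets read the same gene, so it is only approximate here. KRT15 read 2.19 on Aza 2 and 0.00 to 0.26 on the other Aza arrays. KRT7 (209016_s_at) read 4.39 on AGA 3 and 3.33 to 3.38 on the other AGA arrays. KRT8 read 8.30 on AGA 4 and 7.34 to 7.47 on the other AGA arrays.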

How the results depend on the processing

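No keratin probe set passed in limma with or without the replicate block, or under any listed alternative except the block with trend, which called 3 in AGA against vehicle and 1 in Aza against AGA. Over all probe sets the calls in AGA against vehicle were 2, and 0 with a floor of 16, with 16 added or with dim probe sets left out, 156 with block and trend, 7 without all replicate 4 arrays, 4 with only the 8 arrays compared, and 1 to 5 leaving out 1 array. In Aza against vehicle they were 2, and 0 with median centring, a floor of 16, 16 added, dim probe sets left out or the replicate block, 1 with block and trend or Holm adjustment, 6 without replicate 4, 4 with 8 arrays, and 0 to 7 leaving out 1 array. In Aza against AGA they were 3, and 0 with a floor of 16, 16 added or dim probe sets left out, 189 with block and trend, 8 without replicate 4, and 2 to 7 leaving out 1 array. Signs turned for differences that had not passed. In AGA against vehicle, KRT5 was -0.10 and KRT8 -0.04 on the deposited scale, and KRT7 209016_s_at was 0.06 with median centring, 0.03 with a floor of 16 and 0.30 without replicate 4. In Aza against AGA, KRT15 was 0.09 without replicate 4. Leaving out 1 array gave, in AGA against vehicle, -0.11 to 0.12 for KRT5 and -0.27 to 0.21 for KRT7 209016_s_at. In Aza against vehicle it gave -0.20 to 0.39 for KRT14, -0.41 to 0.52 for KRT7 214031_s_at, -0.09 to 0.20 for KRT18 and -0.27 to 0.59 for KRT16. In Aza against AGA it gave -0.73 to 0.24 for KRT15 and -0.16 to 0.27 for KRT10 207023_x_at. KRT7, KRT15 and KRT19 gave no value with dim probe sets left out. The causes were not tested.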

Other observations

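Further genes of the keratin system with the lowest p of their list without the block are given as values of that 1 probe set, since none passed in limma without the block, with it, or with block and trend. In Aza against vehicle, the keratin KRT4 (214399_s_at) averaged 1.19 in Aza and 2.92 in vehicle, the desmosomal PKP2 (214154_s_at) 2.25 and 3.87, the intermediate filament SYNM 4.41 and 3.61, and the oxytocin receptor OXTR 3.48 and 4.18. The other probe set of KRT4 (213240_s_at) averaged 1.17 in Aza and 1.15 in vehicle, and that of PKP2 (207717_s_at) 6.65 and 6.88, so differences of this size were not seen in both probe sets of either gene. In AGA against vehicle, the neuronal filament INA averaged 1.32 in AGA and 3.04 in vehicle, and the smooth muscle myosin MYH11 (201496_x_at) 0.78 and 2.69. In Aza against AGA, the gut keratin KRT20 averaged 2.82 in Aza and 0.97 in AGA, the plakin EVPL 1.31 and 2.75, and MYH11 (201496_x_at) 2.40 and 0.78. The other 3 MYH11 probe sets differed by -1.18, 0.21 and 0.29 in AGA minus vehicle. The epithelial repressor OVOL1 was at the floor on all Aza arrays and averaged 1.30 on AGA arrays. Except PKP2 207717_s_at, the probe sets given here are below the median level of 4.76.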
